A study of Mus musculus with 2 samples.

Results

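CTCF is the zinc-finger protein that binds a long DNA motif and, together with the ring-shaped cohesin complex, marks the anchors of many chromatin loops and the borders of many contact domains. Cohesin is thought to extrude DNA until it meets bound CTCF in the blocking orientation, so the number, spacing and strength of CTCF sites along a stretch of chromosome are among the features by which its folding is described. Places where many sites crowd together are known from borders of domains and from complex gene loci, in embryonic stem cells as in neural cells.

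The regions described here are the 100 kb stretches of the mouse genome in which CTCF peaks were most crowded. The autosomes were divided into fixed bins of 100 kb on mm9, counted from the start of each chromosome, and a bin was called dense when it held 10 or more peak centres in the NPC list or in the ESC list. Bins of chromosome 18 from 37.0 to 38.1 Mb were left out. Of 17643 occupied autosomal bins, 521 were dense (2.95%), and they held 4939 of the 51421 NPC peaks and 5539 of the 54151 ESC peaks, 10478 of 105572 peaks in all. The count of peaks in each list thus chose the bins, and counts, densities and whatever follows from them are a description. They were not tested.

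The study profiled CTCF by chromatin immunoprecipitation and sequencing in E14 neural precursor cells (NPC), which were derived from E14 embryonic stem cells and grown with basic FGF and EGF on gelatin, and in the E14 embryonic stem cells themselves (ESC), grown with serum and leukemia inhibitory factor. The same anti-CTCF antibody was used for both, and each cell type was represented by 1 library of 1 cell line, so the spread between cultures is unknown and every difference between NPC and ESC is a difference between these libraries. No marker of cell identity can be read from a peak list, so the cell types were taken from the labels. The track name of each file ends in CONTROL, without explanation, and the lists were taken as CTCF peaks on the strength of the labels alone. The lists carry positions and the authors' score for each peak, a number whose definition is not given and which was therefore compared only within a list. Depth is unknown. Intervals in brackets are exact Clopper-Pearson 95% intervals for shares and order-statistic 95% intervals for medians. They treat peaks or bins as independent and cover counting error only.

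Most crowded bins were crowded in both cell types or nearly so. Both lists reached 10 peaks in 177 of the 521 dense bins (34.0%). NPC alone reached it in 114 bins and ESC alone in 230. Bins with 10 or more NPC peaks were 1.65% of occupied bins, and bins with 10 or more ESC peaks were 2.31%. A dense bin held 9.48 ± 2.45 NPC peaks (SD over 521 bins, range 2 to 20) and 10.6 ± 2.28 ESC peaks (range 4 to 21). Elsewhere an occupied bin held 2.64 ± 2.01 NPC peaks and 2.75 ± 2.12 ESC peaks. No dense bin was empty in either list, and the 114 bins chosen by NPC alone still had 7.79 ± 1.34 ESC peaks, while the 230 chosen by ESC alone had 7.36 ± 1.54 NPC peaks. Where overlapping peaks of the lists were joined into sites, a dense bin held a median of 12 sites (range 8 to 24).

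**Figure D1:**
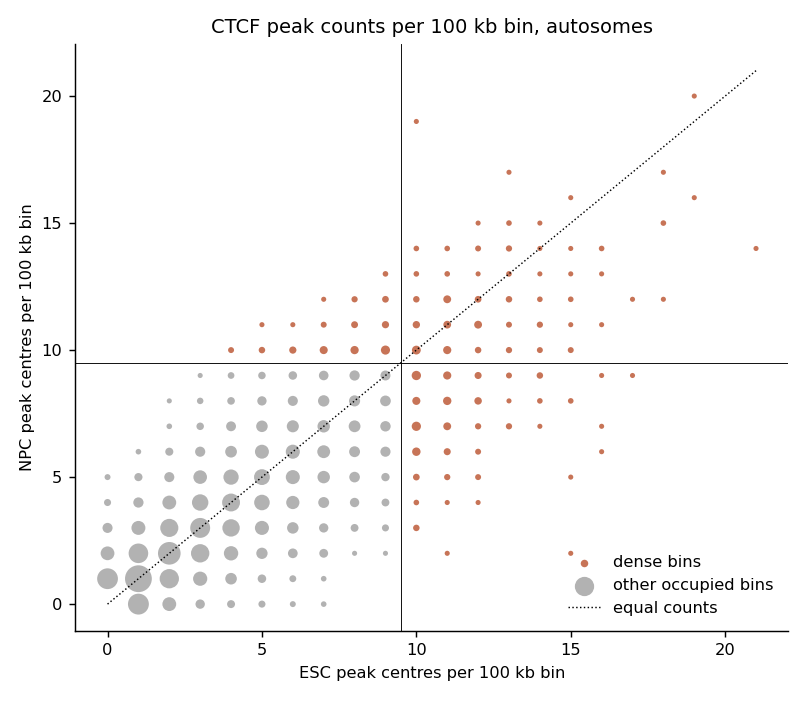
Number of NPC peak centres (vertical axis) against ESC peak centres (horizontal axis) per 100 kb bin, with a point for each combination of counts and point size growing with the number of bins that share it. Dense bins lie to the right of or above the lines at the threshold of 10, reach 20 NPC and 21 ESC peaks, and scatter around the dotted line of equal counts.

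The threshold cut through a continuum. In the 217 bins just inside it, whose larger count was 10, the mean was 8.55 NPC and 9.12 ESC peaks. In the 375 bins just outside, whose larger count was 9, it was 7.63 NPC and 8.29 ESC peaks.

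The crowded bins were gathered on a few chromosomes. Chromosomes 11, 5 and 7 carried 69, 62 and 55 of them, together 186 (35.7%), although they held 17.6% of the occupied bins. On chromosome 11, 6.91% (5.42 to 8.67) of the occupied bins were dense. The share was 5.63% (4.34 to 7.15) on chromosome 5 and 5.46% (4.14 to 7.04) on chromosome 7. Chromosomes 15 and 17 were close to these, with 39 bins (5.21%, 3.73 to 7.05) and 34 bins (5.04%, 3.52 to 6.98). At the other end, chromosome 13 had 2 dense bins among 860 occupied ones (0.233%, 0.0282 to 0.838), and chromosomes 18 and 14 had 4 (0.635%) and 8 (0.967%). The intervals of the 5 richest chromosomes overlapped one another and lay above those of chromosomes 1, 3, 6, 12, 13, 14, 16 and 18.

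Pooled over chromosomes, dense bins were more frequent towards the distal end, away from the centromere, which sits at the start of the mouse chromosomes, but several chromosomes ran the other way. When the span between the first and the last peak of each chromosome was divided into 5 equal parts, the most distal part held 40.1% (35.9 to 44.5) of the dense bins, against 22.6% (21.9 to 23.2) of all occupied bins. The most proximal part held 13.2% (10.5 to 16.5) of the dense bins, against 18.3% (17.8 to 18.9) of all occupied bins. Of the dense bins, 93 (17.9%, 14.7 to 21.4) lay within 10 Mb of the last peak of their chromosome, compared with 9.02% (8.60 to 9.45) of all occupied bins. The most distal part held a larger share of the dense than of the occupied bins on 13 of 19 autosomes. On chromosome 5 it held 44 of 62 dense bins, on chromosome 4, 27 of 42, and on chromosome 11, 33 of 69. On chromosome 7 it held 11 of 55, and 38 of the 55 lay in the first 50% of the span. On chromosome 17 it held none of 34, with 32 in the first 50% of the span, and on chromosome 19 it held 1 of 14, with 12 in the first 50%. Chromosome 3 had none of its 14 dense bins in the most distal part.

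Crowding extended beyond the bins themselves. The bins directly before dense bins held on average 5.63 ± 3.11 NPC peaks and 6.17 ± 3.31 ESC peaks (SD, n = 521). At 1000 kb before them the mean was still 4.25 ± 3.36 NPC peaks and 4.69 ± 3.57 ESC peaks (SD, n = 516). The mean over all autosomal bins between the first and last peaks was 2.08 NPC and 2.18 ESC peaks. A neighbouring bin was itself dense in 16.9% of cases, whereas 2.16% of all bins in the span were dense. Dense bins on the same chromosome followed each other at a median distance of 600 kb, and the longest stretch without one was 83 Mb.

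**Figure D2:**
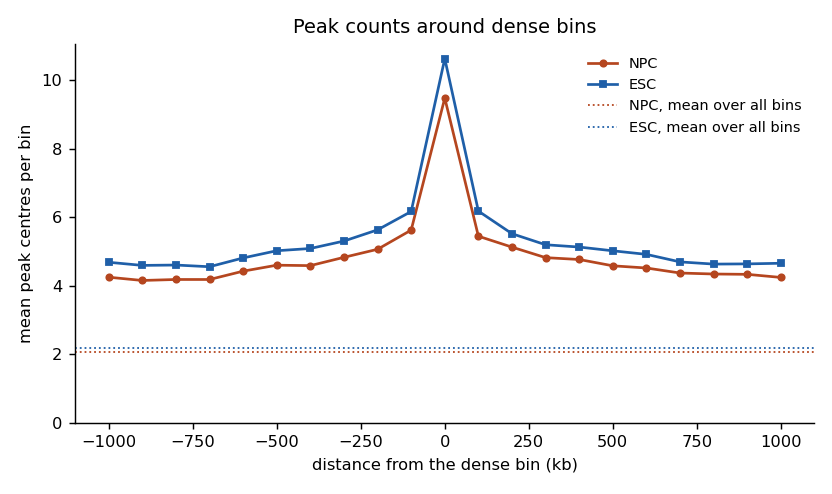
Mean number of peak centres per 100 kb bin (vertical axis) by distance in kb from the 521 dense bins (horizontal axis), for NPC and ESC. The dotted lines give the mean over all autosomal bins of the span, 2.08 for NPC and 2.18 for ESC. Counts fell to 5.63 for NPC and 6.17 for ESC in the bin directly before and remained above the dotted lines out to 1000 kb.

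The 521 bins formed 433 separate stretches, of which 365 were lone bins, 50 were pairs, 16 were runs of 3 and 2 were runs of 4. The runs of 4 lay on chromosome 11 from 98400001 to 98800000, with 41 NPC and 45 ESC peaks, and on chromosome 1 from 88200001 to 88600000, with 36 NPC and 48 ESC peaks. On chromosome 1, 2 of the NPC peaks and 14 of the ESC peaks had no counterpart in the other list, where over all autosomes 21.5% of the NPC and 25.8% of the ESC peaks had none. Runs of 3 on chromosome 7 from 28000001 to 28300000 (35 NPC and 49 ESC peaks) and from 19600001 to 19900000 (33 NPC and 38 ESC peaks) were among the richest. Others with more ESC than NPC peaks were on chromosome 2 from 168600001 to 168900000 (26 NPC, 37 ESC), chromosome 6 from 122500001 to 122800000 (20 NPC, 36 ESC), chromosome 11 from 114400001 to 114700000 (24 NPC, 34 ESC), chromosome 4 from 132900001 to 133200000 (23 NPC, 31 ESC), chromosome 17 from 28400001 to 28700000 (25 NPC, 33 ESC), and chromosome 5 from 134900001 to 135200000 (28 NPC, 33 ESC) and from 123500001 to 123800000 (30 NPC, 34 ESC). The runs with more NPC than ESC peaks were chromosome 4 from 151400001 to 151700000 (38 NPC, 34 ESC), chromosome 17 from 45600001 to 45900000 (35 NPC, 31 ESC) and chromosome 15 from 98800001 to 99100000 (33 NPC, 30 ESC). The run on chromosome 3 from 89000001 to 89300000 also held more ESC peaks (27 NPC, 30 ESC). The remaining runs were nearly level, on chromosome 10 from 80800001 to 81100000 (32 NPC, 33 ESC) and from 126500001 to 126800000 (32 NPC, 34 ESC), and on chromosome 11 from 115700001 to 116000000 (29 NPC, 29 ESC). Counting by megabase, the densest was chromosome 10 from 126 to 127 Mb, where 6 of the bins were dense. On the same chromosome the 2 megabases from 79 to 81 Mb had 5 dense bins each.

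Pooled over the dense bins, peaks scored higher than the other peaks of the same list. The score was not used to choose the bins, but the shift differed with the list that chose them. The median NPC score was 468 (442 to 493) in dense bins and 384 (379 to 391) on the rest of the autosomes. The median ESC score was 628 (606 to 660) in dense bins and 517 (511 to 526) elsewhere. Above the autosomal median of their own list lay 54.9% (53.5 to 56.3) of the NPC peaks in dense bins, against 49.5% (49.0 to 49.9) of the others. For ESC peaks these shares were 55.4% (54.1 to 56.8) in dense bins and 49.3% (48.8 to 49.7) elsewhere. In the 230 bins chosen by ESC alone, 49.2% (47.3 to 51.2) of the ESC peaks were above it, level with elsewhere. In the 114 bins chosen by NPC alone, 61.7% (58.4 to 64.9) of the ESC peaks were. For NPC peaks the shares were 53.6% (51.2 to 56.0) in bins chosen by ESC alone and 52.5% (49.6 to 55.4) in those chosen by NPC alone. The higher median was found on 16 of 19 autosomes for NPC and on 15 of 19 for ESC. Among the chromosomes with the most dense bins, chromosome 11 was nearly level: its NPC medians were 422 in dense bins and 428 elsewhere, and its ESC medians 556 in dense bins and 546 elsewhere.

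The difference was widest among the strongest peaks. The top decile of the NPC list by score held 801 of the dense-bin peaks (16.2%, 15.2 to 17.3), against 9.57% (9.30 to 9.85) of the other NPC peaks. The top decile of the ESC list held 822 (14.8%, 13.9 to 15.8), against 9.70% (9.44 to 9.98). Weak peaks were present as well: the lowest decile held 8.67% (7.90 to 9.49) of the NPC and 9.04% (8.30 to 9.83) of the ESC peaks in dense bins, against 10.1% (9.84 to 10.4) and 10.0% (9.77 to 10.3) of the NPC and ESC peaks elsewhere. At least 1 peak of the top decile was found in 375 of the 521 bins for NPC and in 416 for ESC. A bin with more peaks has more occasions to hold such a peak, so these counts depend on the choice of the bins. Both strong and weak peaks were found in crowded bins. The median score of a bin ranged between 127 and 1584 in NPC and between 156 and 1590 in ESC.

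The share of strong peaks went up with the number of peaks in the bin. Of NPC peaks that were alone in their bin, 3.68% (3.18 to 4.24) were in the top decile. With 2 or 3 NPC peaks the share was 7.31% (6.89 to 7.75), with 4 to 6 it was 11.1% (10.7 to 11.6), with 7 to 9 it was 14.2% (13.5 to 14.98), with 10 to 12 it was 16.5% (15.1 to 17.97) and with 13 to 20 it was 20.0% (16.8 to 23.5). In ESC the corresponding shares were 4.55% (3.99 to 5.16) for lone peaks, 7.85%, 11.1%, 12.7% and 14.2% in the bins between, and 15.7% (13.6 to 17.9) in bins with 13 to 21 ESC peaks. The intervals of the last neighbouring classes overlapped in both lists.

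Dense-bin peaks were also slightly wider, with a median of 464 bp (457 to 470) in NPC and 608 bp (601 to 613) in ESC, against 432 bp (431 to 434) in NPC and 573 bp (571 to 575) in ESC elsewhere. The wider median was seen on 18 of 19 autosomes in each list. Score and width were not separated here.

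Spacing follows from the counts that chose the bins, short distances included, and is given as a description. The median distance between neighbouring centres within a dense bin was 6148 bp (5850 to 6440) in NPC and 5507 bp (5289 to 5723) in ESC. Centres less than 1 kb apart made up 6.41% (5.70 to 7.17) of these distances in NPC and 5.94% (5.30 to 6.63) in ESC, so the crowding was mostly of peaks several kilobases apart. Elsewhere 4.19% of the NPC and 3.16% of the ESC distances were that short. In dense bins 74 sites were made of 1 ESC peak lying over 2 or more NPC peaks (1.18%, 0.929 to 1.48, of 6265 sites), and 6 of 1 NPC peak over 2 or more ESC peaks. On the other autosomal bins 315 of 57030 sites (0.552%, 0.493 to 0.617) had 1 ESC peak over several NPC peaks. A few counts in NPC thus came from sites that ESC listed as 1 peak.

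Of the 6265 sites in dense bins, 4123 (65.8%, 64.6 to 67.0) carried a peak in both lists, 737 (11.8%, 10.98 to 12.6) in NPC only and 1405 (22.4%, 21.4 to 23.5) in ESC only. Elsewhere on the autosomes 61.1% (60.7 to 61.5) of the sites were in both lists, 17.6% (17.3 to 17.9) in NPC only and 21.3% (20.99 to 21.7) in ESC only. Sharing was uneven between bins, with a median of 66.7% of the sites in both lists (interquartile range 57.1 to 76.9) and a minimum of 13.3%. In 8 bins all sites were in both lists, in 59 bins fewer than 50% were, and every dense bin had at least 1 shared site. NPC-only sites were absent from 178 bins and ESC-only sites from 73.

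Counted by peak, 737 of 4939 NPC peaks in dense bins lacked an ESC peak (14.9%, 13.9 to 15.9), whereas 22.2% (21.8 to 22.6) did so in other autosomal bins and 21.5% over all autosomal NPC peaks. Among ESC peaks in dense bins, 1405 of 5539 lacked an NPC peak (25.4%, 24.2 to 26.5), close to 25.9% (25.5 to 26.3) elsewhere and 25.8% over all autosomal ESC peaks. The NPC share was lower in dense bins on all 19 autosomes, the ESC share on 10 of 19. These shares depend on how the bins were chosen. A bin picked for its ESC peaks offers its NPC peaks more partners, and a bin picked for its NPC peaks does the reverse. In the 291 bins with 10 or more NPC peaks, 19.01% (17.7 to 20.4) of the NPC peaks and 14.9% (13.7 to 16.3) of the ESC peaks were unshared. In the 407 bins with 10 or more ESC peaks, 10.4% (9.47 to 11.4) of the NPC peaks and 28.6% (27.3 to 29.9) of the ESC peaks were. In the 177 bins that both lists chose, 13.2% (11.7 to 14.7) of the NPC peaks and 17.7% (16.1 to 19.4) of the ESC peaks were unshared. Bins chosen by ESC alone had 37.8% (35.9 to 39.7) of their ESC peaks unshared, and bins chosen by NPC alone 29.1% (26.5 to 31.8) of their NPC peaks.

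Unshared peaks in crowded bins were mostly weak. Their median score was 170 (162 to 180) in NPC and 200 (191 to 207) in ESC, close to the 168 (165 to 170) of NPC-only and 192 (188 to 195) of ESC-only peaks elsewhere. Shared peaks in dense bins had medians of 602 (567 to 634) in NPC and 886 (861 to 912) in ESC. Above the list median were 89 of the 737 NPC-only peaks (12.1%, 9.81 to 14.6), close to the 11.4% (10.8 to 12.1) elsewhere, and 174 of the 1405 ESC-only peaks (12.4%, 10.7 to 14.2), against 8.63% (8.13 to 9.14) elsewhere. Because peaks are crowded, an unshared peak usually had a peak of the other list nearby: the median distance was 3344 bp (3015 to 3739) for NPC-only and 3590 bp (3282 to 3891) for ESC-only peaks, compared with 12210 and 11622 bp for NPC-only and ESC-only peaks on the rest of the autosomes.

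The NPC difference in sharing was present at equal score. In 9 of the 10 score deciles of the NPC list, fewer dense-bin peaks than other peaks lacked an ESC peak, the exception being the ninth. In the lowest decile 43.0% (38.3 to 47.8) of the dense-bin NPC peaks were unshared, against 56.0% (54.5 to 57.5) of the others. In the fifth decile it was 16.5% (13.1 to 20.3), against 21.6% (20.4 to 22.8). In the top decile nearly every peak was shared, with 1 of 801 unshared in dense bins and 17 of 4326 elsewhere. At the decile rates of the other bins, 19.8% of the dense-bin NPC peaks would have been unshared. For ESC peaks the shares ran the other way in 9 of 10 deciles. In the lowest decile 71.9% (67.7 to 75.7) of the dense-bin ESC peaks were unshared, against 66.3% (64.9 to 67.7), and in the sixth decile 19.04% (15.7 to 22.7), against 13.1% (12.2 to 14.1). The fourth decile was the exception, with 33.7% (29.4 to 38.2) against 37.2% (35.8 to 38.6). At the rates of the other bins 23.0% of the dense-bin ESC peaks would have been unshared. More dense bins were chosen through the ESC list than through the NPC list. Of the NPC peaks, 7.09% were unshared in bins chosen by ESC alone and 29.1% in bins chosen by NPC alone. For ESC peaks these shares were 37.8% and 8.33%. The deciles were not divided by the list that chose the bins, and the part this plays was not tested.

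**Figure D3:**
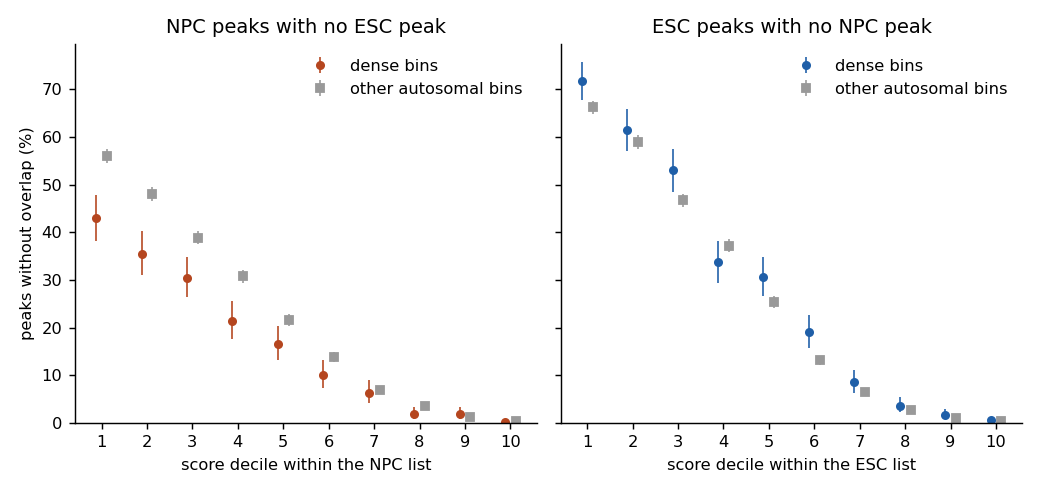
Share of peaks without an overlapping peak in the other list (vertical axis, percent, with 95% Clopper-Pearson bars) by score decile within each list (horizontal axis), for NPC peaks on the left and ESC peaks on the right, in dense bins (circles) and in other autosomal bins (squares). NPC peaks in dense bins lie below the others in 9 of 10 deciles, at 43.0% against 56.0% in the lowest. ESC peaks in dense bins lie above the others in 9 of 10 deciles.

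At the sites of dense bins that matched 1-to-1 (4039 pairs), NPC and ESC scores had a Spearman's rho of 0.60 across pairs, compared with 0.62 across the 34496 pairs elsewhere. Pairs within a list share a library, and this is a description. The median percentile of the paired peaks within their list was 63.9 (62.1 to 65.5) in NPC and 68.3 (67.2 to 69.5) in ESC. The pairs elsewhere had medians of 59.7 (59.3 to 60.2) in NPC and 61.7 (61.3 to 62.1) in ESC. In 54.1% (52.6 to 55.7) of the dense-bin pairs the NPC peak had the lower percentile, and in 52.7% (52.1 to 53.2) of the others. Without chromosome 15 these shares were 56.2% (54.6 to 57.9) in dense bins and 53.6% (53.1 to 54.2) elsewhere.

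Dense bins as chosen here held fewer NPC than ESC peaks, by a small margin. There were 0.892 NPC peaks per ESC peak (0.858 to 0.927), against 0.961 on the other autosomal bins. NPC had fewer peaks than ESC in 307 dense bins (58.9%, 54.6 to 63.2) and more in 167 (32.1%, 28.1 to 36.3), with 47 equal. Over all occupied bins NPC had fewer in 33.7% and more in 28.7%, with ties far more frequent at low counts. The difference in a bin, NPC minus ESC, had a median of -1 and lay between -13 and 9. It was at most 2 peaks either way in 264 bins (50.7%, 46.3 to 55.0). NPC was lower by 5 or more in 66 bins and higher by 5 or more in 12. The choice of the bins enters here too, since a bin chosen for 1 list is expected to hold fewer in the other: bins with 10 or more NPC peaks had 1.08 NPC peaks per ESC peak, bins with 10 or more ESC peaks 0.806, and the 177 bins that reached 10 in both 0.968. In a choice that treats the lists alike, made after seeing the data, the 257 bins with 20 or more peaks summed over the lists held 0.917 NPC peaks per ESC peak (0.871 to 0.965), an interval that includes the 0.956 of the other bins. With 18 or more it was 0.925 (0.888 to 0.963), which includes the 0.957 of the others. The intervals of the ratios come from the NPC share of all peaks and count each peak as independent, although most peaks were shared. Whether they include the value of the other bins therefore decides nothing.

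By chromosome, the NPC-to-ESC ratio was lower in dense bins than in the other bins of the same chromosome on 18 of 19 autosomes. Chromosome 12 was the exception, with 1.06 in 12 dense bins against 0.916 elsewhere. The counts that chose the bins also make up this ratio, so the number of autosomes is a description. On chromosome 12, 10 bins reached the threshold in NPC and 4 in ESC, and on chromosome 5, 29 in NPC and 55 in ESC. Chromosome 5 had 0.782 NPC peaks per ESC peak in its 62 dense bins, against 0.900 in its other bins, and 9 of the 62 held more NPC than ESC peaks. Chromosome 7 had 0.839 in 55 bins, against 0.961. Chromosome 15 stood apart, with 1.18 in its 39 dense bins, against 1.23 in its other bins. There 33 of the 39 bins held more NPC than ESC peaks, 37 reached 10 in NPC and 21 in ESC. NPC thus exceeded ESC on chromosome 15 inside and outside dense bins. On this chromosome 25.7% (21.8 to 29.9) of the dense-bin NPC peaks and 14.4% (11.1 to 18.3) of the dense-bin ESC peaks were unshared. In the other bins of chromosome 15 these shares were higher, 31.3% for NPC peaks and 16.3% for ESC peaks. The latter lay within the dense-bin interval. Without chromosome 15 the ratio over dense bins was 0.869, against 0.951 outside. More NPC than ESC peaks were then held by 27.8% of the dense bins, level with 27.8% of the other bins. Number of chromosome copies, depth and calling limit are not recorded in the lists, and their part in these ratios was not tested.

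**Figure D4:**
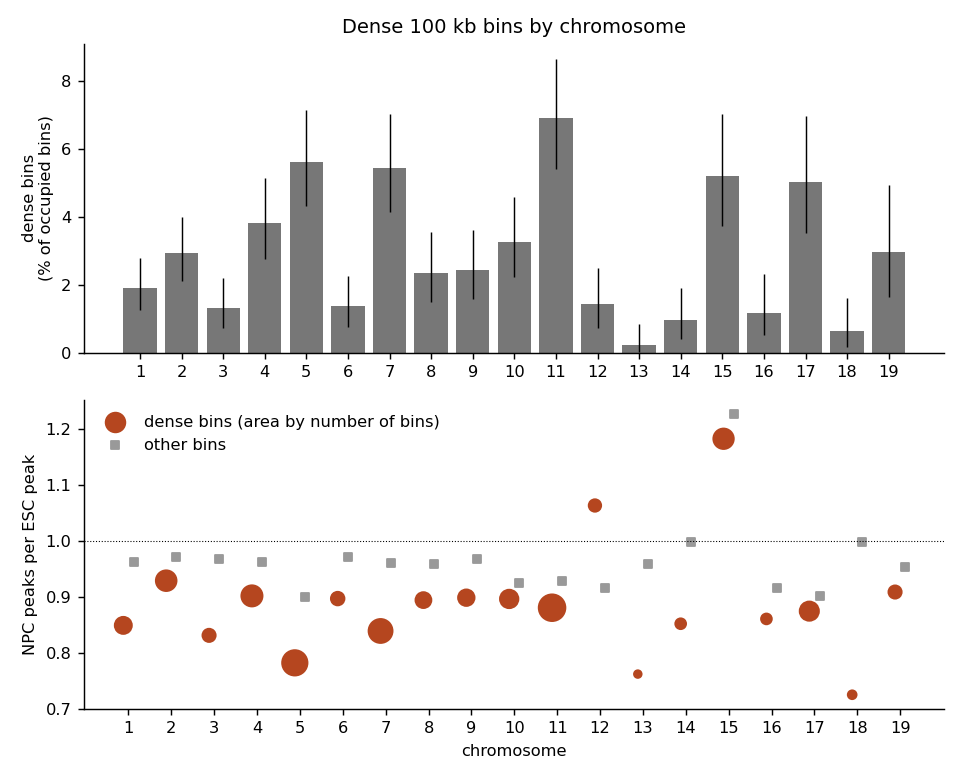
Upper panel, dense bins as a percentage of occupied 100 kb bins on each autosome, with 95% Clopper-Pearson bars. Lower panel, NPC peaks per ESC peak in dense bins (circles, larger with more bins) and in the other bins (squares) of each chromosome. Chromosome 11 has the highest percentage (6.91), and chromosomes 15 (1.18) and 12 (1.06) are the only ones with more NPC than ESC peaks in dense bins.

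The bin with the most peaks lay on chromosome 15 from 103100001 to 103200000, with 20 NPC and 19 ESC peaks. They formed 24 sites, of which 13 were in both lists, 6 in NPC only and 5 in ESC only. The NPC peaks scored between 106 and 3100, with a median of 1061, and the ESC peaks between 112 and 1785, with a median of 790. The strongest NPC peak, at 103145311 to 103146169, scored 3100, a value at which many NPC scores pile up, and the ESC peak over it (103145325 to 103146217) scored 1057. Next came an NPC peak of score 2555 at 103154220 to 103154957, matched by an ESC peak of score 1527. An NPC peak of score 1926 at 103172718 to 103173397 was matched by an ESC peak of score 1612. At 10 of the 12 sites that matched 1-to-1 the percentile within the list was higher in NPC, with medians of 91.2 in NPC and 76.8 in ESC. All unshared peaks were weak, between 106 and 268 in NPC and between 186 and 275 in ESC. Of the ESC-only peaks, 4 lay between 103170435 and 103179343, around the shared sites at 73.1 and 77.8 kb of the bin.

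The next bin was on chromosome 7 from 28000001 to 28100000, with 14 NPC and 21 ESC peaks, the highest ESC count of any dense bin. Of its 22 sites, 13 were in both lists, 1 in NPC only and 8 in ESC only. Its NPC peaks scored between 121 and 983 (median 386) and its ESC peaks between 137 and 2042 (median 542). The strongest ESC peak, at 28086849 to 28087735, scored 2042, at the 97.1 percentile of the ESC list, and the NPC peak under it scored 491, at the 57.6 percentile of the NPC list. The ESC peak at 28015656 to 28016322 scored 1651 and its NPC counterpart 228. In 11 of 13 matched pairs the percentile was lower in NPC, with medians of 52.5 in NPC and 84.5 in ESC, so that here the sites kept in both lists also ranked differently. Among the ESC-only peaks the highest, at 28069841 to 28070524, scored 921 and lay 167 bp from an NPC peak, and the next, at 28075434 to 28075914, scored 733.

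The bin with the largest excess of NPC peaks was on chromosome 15 from 97600001 to 97700000, with 19 NPC and 10 ESC peaks. Of its NPC peaks 9 had no ESC peak, and 1 of the ESC peaks, of score 315, had no NPC peak. The NPC-only peaks were not all weak: those at 97640282 to 97640913, at 97659398 to 97659885 and at 97655365 to 97655817 scored 1118, 840 and 530, above the NPC median, and the other 6 scored between 114 and 321. Most of them lay in the middle of the bin, where 6 consecutive NPC peaks between 97630261 and 97661409 had no ESC counterpart. The strongest shared site had an NPC score of 2403 (97606901 to 97607506) and an ESC score of 1314. In 6 of 8 matched pairs the NPC percentile was higher.

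The bin with the largest excess of ESC peaks was on chromosome 5 from 148800001 to 148900000, with 2 NPC and 15 ESC peaks. Both NPC peaks, of score 339 and 134, overlapped ESC peaks, of score 933 and 775, and the other 13 ESC peaks lay 5778 bp or more from any NPC peak. The ESC-only peaks scored between 102 and 1195, and 4 of them were above the ESC median. The strongest, at 148894919 to 148895586, scored 1195. Those at 148801701 to 148802391, at 148873338 to 148873952 and at 148891122 to 148891825 scored 805, 697 and 563.

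**Figure D5:**
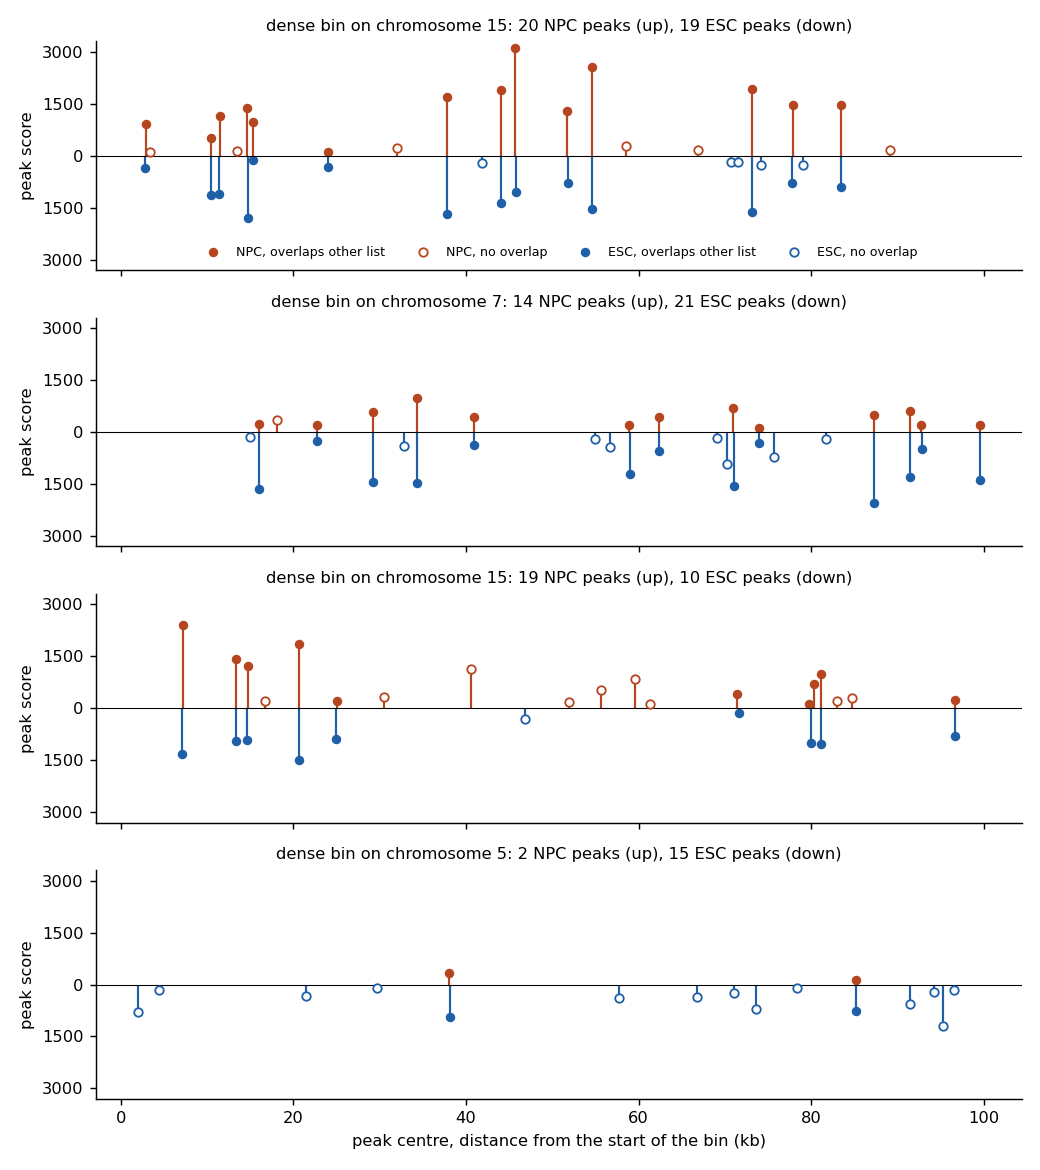
Peak scores (vertical axis; NPC upwards, ESC downwards) by distance of the peak centre from the start of the bin in kb (horizontal axis) in the 4 bins described peak by peak: the bins with the highest summed counts (20 NPC and 19 ESC peaks; 14 NPC and 21 ESC peaks), with the largest NPC excess (19 NPC and 10 ESC peaks) and with the largest ESC excess (2 NPC and 15 ESC peaks). Filled points overlap a peak of the other list and open points do not. Of the 9 open NPC points in the third bin, 6 lie in its middle, and in the last bin 13 of the 15 ESC points are open.

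In the other bins with the highest sums the counts of the cell types were 1 to 4 peaks apart. On chromosome 10 neighbouring bins from 79100001 to 79200000 and from 79200001 to 79300000 had 17 and 15 NPC peaks, against 18 and 18 ESC peaks. The bin on chromosome 19 from 45100001 to 45200000 had 16 NPC and 19 ESC peaks, and the bin on chromosome 17 from 30800001 to 30900000 had 15 NPC and 18 ESC peaks. In both, all NPC peaks overlapped ESC peaks and 15 of 18 sites were shared. Chromosome 4 from 151500001 to 151600000 held 16 NPC and 15 ESC peaks, with 14 of 16 sites shared, and chromosome 5 from 122500001 to 122600000 held 14 NPC and 16 ESC peaks, also with 14 of 16 sites shared. The bin on chromosome 2 from 168700001 to 168800000 had 14 NPC and 16 ESC peaks. A second bin of chromosome 15, from 102100001 to 102200000, had 17 NPC and 13 ESC peaks, of which 5 NPC peaks and 1 ESC peak were unshared.

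After the chromosome 15 bin, the largest NPC excess was 6 peaks in each of 4 bins named by position: chromosome 7 from 116100001 to 116200000 (11 NPC, 5 ESC), chromosome 4 from 139400001 to 139500000 (10 NPC, 4 ESC), chromosome 6 from 88700001 to 88800000 (10 NPC, 4 ESC) and chromosome 9 from 62300001 to 62400000 (10 NPC, 4 ESC). In the first 3 of these, all ESC peaks were shared. Those ESC peaks had a median of 990 on chromosome 7, 716 on chromosome 4 and 912 on chromosome 6. After the chromosome 5 bin, the largest ESC excesses were again on chromosome 5, from 128100001 to 128200000 (6 NPC, 16 ESC) and from 120100001 to 120200000 (5 NPC, 15 ESC), followed by chromosome 11 from 95800001 to 95900000 (7 NPC, 16 ESC) and chromosome 7 from 117200001 to 117300000 (2 NPC, 11 ESC). In all 4 of these bins every NPC peak overlapped an ESC peak. Thus 3 of the 5 bins with the largest ESC excess were on chromosome 5. This chromosome held 62 of the 521 dense bins and 55 of the 407 with 10 or more ESC peaks. Outside its dense bins it had 0.900 NPC peaks per ESC peak.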

How the data were processed

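CTCF ChIP-seq peaks of 1 NPC and 1 ESC library were analysed. The authors deposited 1 list per library with a start, an end and a score per peak; the peaks came from MACS, per the file headers, and the build was mm9, per the submitters' processing notes. The score is the authors' value, and the sources used here do not give its definition, the MACS version, the control, the threshold or the aligner. Depth is unknown, so no floor or depth correction was made.

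Centres were midpoints. Shared meant an overlap of at least 1 bp, computed on the complete lists. Deciles and percentiles were ranks in the complete list; list medians were over autosomes. Sites were unions of overlapping peaks. Python 3.11.15, numpy 2.4.6, pandas 2.3.3, scipy 1.17.1 and matplotlib 3.10.9 were used, and the counting and overlap steps were tested on simulated data. Printed starts are 1-based.

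The bins and alternatives were chosen with earlier results of these data known. Named bins were the 10 with the highest summed counts, the 5 with the largest excess each way and all runs of 3 or more, with ties broken by summed count and then position. Bins are named by position only, since genes and sequence on mm9 were not used. No test between cell types was possible with 1 library each.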

Additional observations from a re-analysis of the deposited data

How the results depend on the processing

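The lists hold no read counts, so depth limits every missing overlap, and leaving out a library was not possible with 1 for each cell type. No paired analysis was possible because each group has 1 sample. Against 521 dense bins, a threshold of 8 gave 1410, a threshold of 12 gave 179, the upper 50% of each list by score gave 34 and, chosen after seeing the data, 20 or more summed centres gave 257. The NPC-to-ESC ratio, 0.892, was 0.953 with lists of equal length, against 1.01 in the other bins under that setting. In the upper 50% it was 0.797, against 0.953. It lay below that of the other bins in all 10 settings run. With 18 or 20 summed centres (0.925 and 0.917) its interval included the value of the other bins. That interval counts a shared site in both lists as independent peaks, so this decides nothing. The share of dense bins with more NPC peaks was 32.1%, against 28.6% of the other bins. It was 40.6% against 32.1% with lists of equal length and 26.5% against 26.0% in the upper 50%. Without chromosome 15 it was 27.8% in both. Unshared NPC peaks were 14.9% in dense bins, against 22.2% in the other bins. They were 16.6% against 22.9% at a threshold of 8 and 12.96% against 21.8% at 12. With 50% reciprocal overlap they were 24.4% against 28.6%, and with centres within 100 bp 23.3% against 27.1%. Peaks within 1 kb gave 12.2% against 20.7%, and lists of equal length 16.5% against 23.7%. The upper 50% gave 13.9% against 22.7%, and leaving out chromosome 15 gave 13.8% against 21.7%. With 18 summed centres they were 13.8% against 22.2%, and with 20 13.3% against 21.96%. All 13 settings put them below the other bins. Unshared ESC peaks were 25.4% in dense bins, against 25.9% in the other bins. With 50% reciprocal overlap they were 32.6% against 31.3%, and with centres within 100 bp 31.6% against 29.96%. Peaks within 1 kb gave 20.8% against 24.1%, and lists of equal length 21.96% against 23.7%. In the upper 50% they were 31.7% against 26.8%. With 18 summed centres they were 21.7% against 26.2%, and with 20 22.1% against 26.0%. They lay below the other bins in 9 of 13 settings, so their position against the other bins was not settled. ESC peaks above the median score, 55.4%, were 53.9% at a threshold of 8, and 57.8% with either summed choice. Of 74 values under alternatives, 45 stayed within the interval of the main value or within 1.5 times of the main count, among them those from bins shifted by 50 kb, centres within 1 kb merged and chromosome 5 left out. The cause of the values that moved was not tested.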
